A study of Mus musculus with 14 samples.

Results

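The glutathione peroxidases are enzymes that reduce hydrogen peroxide and lipid hydroperoxides, in most cases with glutathione as the source of electrons. Oxidised glutathione is returned to its reduced form by glutathione reductase (Gsr) at the cost of NADPH. In Gpx1 to Gpx4 the catalytic residue is selenocysteine, which is encoded by a UGA codon that other genes read as a stop. Gpx7 and Gpx8 carry cysteine at that place and work in the endoplasmic reticulum, where peroxide is made during disulfide formation. Of the 41204 genes in the deposited expression table, 8 are Gpx genes and 6 of them are described here: Gpx1, Gpx2, Gpx3, Gpx4, Gpx7 and Gpx8. They were picked by family name with their FPKM values in these samples already known, so those values are given as a description and without a test. All 6 passed the filter on low values, a mean above 0.2 FPKM over the 8 RNA-seq samples, which left 15430 genes.

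Poly(A) RNA was sequenced from mouse embryonic stem cells (ESCs) labelled as C57BL/6(F) x 129/sv(M), 3.5 days, in 4 groups of 2 samples. Wild-type and Trincr1-/- cells were grown in 2i + LIF, which is N2B27 with 1 µM of the MEK inhibitor PD0325901, 3 µM of the GSK3 inhibitor CHIR99021 and 1000 units per ml of LIF, or were plated in it for 24 h and then kept for 4 days in PD + LIF, the same medium without CHIR99021. MEK was therefore inhibited in all 4 groups, and the media differed by the GSK3 inhibitor, which keeps β-catenin from being degraded. Trincr1 (Gm2694) is a long noncoding RNA from which the study removed the later exons with a pair of CRISPR guides. The sources used here do not say whether the 2 knockout samples of a group came from 1 clone or from several. The design text calls the 2 samples of each group biological replicates but names no cultures or clones, so every p-value below measures only the spread between these samples. A second experiment sequenced RNA pulled down with FLAG-tagged TRIM71 from ESCs in 2i + LIF, with its input. By the paper these cells overexpressed the tagged protein.

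Gm2694 was at 5.70 and 9.45 FPKM in wild-type and at 0.0754 and 0 FPKM in Trincr1-/- cells in 2i + LIF. In PD + LIF it was at 6.18 and 6.56 FPKM in wild-type and at 1.38 and 0.746 FPKM in Trincr1-/- cells, so the knockout samples lay below the wild-type samples in both media. All 8 pluripotency markers (Pou5f1, Sox2, Nanog, Zfp42, Esrrb, Klf4, Tfcp2l1 and Tbx3) had means above 1 FPKM in every group. Their summed level was 1804 to 1839 FPKM over the 4 samples in 2i + LIF, 1121 and 1156 FPKM in wild-type and 919 and 952 FPKM in Trincr1-/- cells in PD + LIF. The sum was led by Pou5f1, whose means ran from 705 FPKM in 2i + LIF to 363 FPKM in Trincr1-/- cells in PD + LIF, and single markers departed from its order. Sox2 had a mean of 146 FPKM in wild-type cells in 2i + LIF and of 179 FPKM in PD + LIF, and Klf4 in PD + LIF had one of 29.4 FPKM in wild-type and of 34.3 FPKM in Trincr1-/- cells. From 2i + LIF to PD + LIF in wild-type cells, Tfcp2l1 (102 to 22.8 FPKM) and Tbx3 (34.2 to 5.55 FPKM) fell by a larger factor than Pou5f1 (705 to 417 FPKM). The sequencing depth estimated from the smallest steps of the FPKM values was 10.2 to 14.1 M fragments per sample (M, 1000000).

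In the stretch of the coding sequence around the catalytic residue, the codon of that residue divides the family. The 6 stretches below are read 5′ to 3′ from GENCODE M1 transcripts (NCBIM37), each in frame and 27 bases long, with the codon of the catalytic residue in capitals.
Gpx1: aatgtcgcgtctctcTGAggcaccacg
Gpx2: aatgtggcgtcactcTGAggaacaact
Gpx3: aacgtagccagctacTGAggtctgaca
Gpx4: aacgtggcctcgcaaTGAggcaaaact
Gpx7: aacgtagctagcgaaTGTggcttcaca
Gpx8: aacgtggctagtgacTGCcgcttcaca
The capitals are TGA in Gpx1 to Gpx4, all 4 annotated there as selenocysteine, and the cysteine codons TGT in Gpx7 and TGC in Gpx8. Gpx1 and Gpx2 share 22 of the 27 bases, as do Gpx7 and Gpx8, while Gpx2 and Gpx7 share 12. The stretch as a whole does not follow the division by codon. Gpx3 shares 20 bases with Gpx7 and 18 with Gpx8, but 14 with Gpx1, 14 with Gpx2 and 16 with Gpx4. The codon is number 47 of Gpx1 (chr9:108241782-108241784, plus strand, exon 1 of 2), 40 of Gpx2 (chr12:77896243-77896245, minus strand, exon 1 of 2), 73 of Gpx3 (chr11:54720758-54720760, plus strand, exon 2 of 5) and 73 of the Gpx4 transcript used (chr10:79517482-79517484, plus strand, exon 3 of 7). In Gpx7 it is codon 56 (chr4:108076035-108076037, minus strand, exon 2 of 3), and in Gpx8 codon 79 (chr13:113835869-113835871, minus strand, exon 2 of 3).

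The expression table itself places the genes by GRCm38 coordinates, with Gpx1 at chr9:108339080-108340338, Gpx2 at chr12:76792335-76795554, Gpx3 at chr11:54902453-54910377, Gpx4 at chr10:80047166-80056439, Gpx7 at chr4:108400390-108406961 and Gpx8 at chr13:113042763-113046388. By the table's coordinates Gpx2 lies inside the locus of Fntb (chr12:76765589-76921412), and Gpx8 inside that of Cdc20b (chr13:113035111-113091195), each on the opposite strand. In the RefSeq annotation of GRCm38.p6 Fntb starts at base 76837400, beyond the end of Gpx2, while Cdc20b still spans Gpx8. Neither pair shares an exonic base in GENCODE M1. Fntb was at 31.5 ± 1.68 FPKM (SD, n = 2) in wild-type cells in 2i + LIF and at 21.2 ± 0.410 FPKM (SD, n = 2) in PD + LIF, and Cdc20b did not exceed 0.304 FPKM in any sample.

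Gpx1 and Gpx4 made up most of the family's mRNA in every sample, and the rank below them changed with the medium. Gpx1, the main cytosolic peroxidase, and Gpx4, which reduces lipid hydroperoxides within membranes, together held 85.6% to 95.7% of the summed FPKM of the 6 genes. That sum was 709 to 779 FPKM in 2i + LIF and 567 to 645 FPKM in PD + LIF. Gpx2, best known from the intestinal epithelium, held 13% and 12.2% in wild-type and 9.11% and 8.87% in Trincr1-/- cells in 2i + LIF, and between 0.217% and 0.667% in the 4 samples in PD + LIF. By mean FPKM it ranked 886th of 41204 genes in wild-type cells in 2i + LIF and 9643rd in PD + LIF. Gpx3, the secreted plasma form, went from 0.291% to 0.434% in 2i + LIF to between 1.19% and 2.62% in PD + LIF. FPKM is a level per kilobase of transcript, so these shares compare the genes per length.

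**Figure D1:**
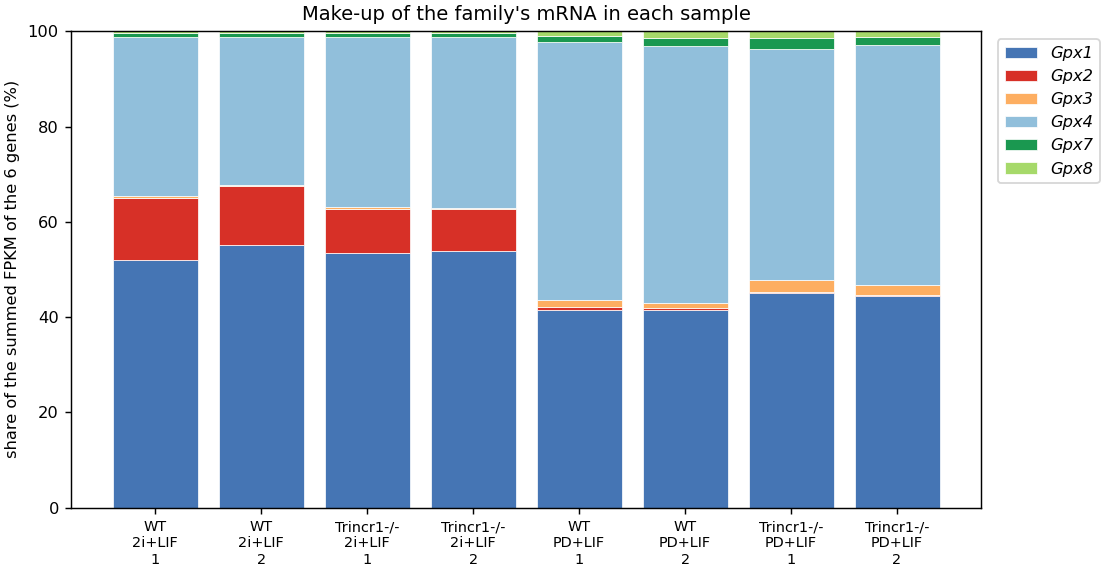
Share of the summed FPKM of the 6 glutathione peroxidase genes held by each gene (y axis, percent), in each of the 8 RNA-seq samples (x axis, genotype, medium and replicate). Gpx1 and Gpx4 fill most of every bar, and the band of Gpx2, 8.87% to 13% in 2i + LIF, is at most 0.667% in PD + LIF.

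Among the selenocysteine members, Gpx2 had the widest range, 77.6-fold between its lowest and its highest sample. It was at 95.6 and 89.7 FPKM in wild-type and at 64.6 and 69.1 FPKM in Trincr1-/- cells in 2i + LIF. In PD + LIF it was at 4.19 and 2.80 FPKM in wild-type and at 1.60 and 1.23 FPKM in Trincr1-/- cells. The 4 groups thus stood in the order wild type in 2i + LIF, Trincr1-/- in 2i + LIF, wild type in PD + LIF and Trincr1-/- in PD + LIF, and no neighbours in that order overlapped. The group means were 92.7 ± 4.18, 66.8 ± 3.15, 3.50 ± 0.983 and 1.42 ± 0.261 FPKM (SD, n = 2 each). The mean was 26.5-fold lower in PD + LIF than in 2i + LIF in wild-type cells and 47.2-fold lower in Trincr1-/- cells, and the loss of Trincr1 came with a mean 1.39-fold lower in 2i + LIF and 2.47-fold lower in PD + LIF. In PD + LIF the values rest on few reads, an estimated 50 and 28 fragments in the wild-type and 16 and 14 in the Trincr1-/- samples, against 600 to 982 in 2i + LIF.

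Gpx3 ran the other way. It was at 2.34 and 2.22 FPKM in wild-type and at 3.08 and 2.26 FPKM in Trincr1-/- cells in 2i + LIF, and at 8.37 and 7.66 FPKM in wild-type and 15.1 and 12.5 FPKM in Trincr1-/- cells in PD + LIF. The genotypes overlapped in 2i + LIF and did not in PD + LIF, where the mean was 13.8 ± 1.83 FPKM in Trincr1-/- and 8.02 ± 0.507 FPKM in wild-type cells (SD, n = 2 each), 1.72-fold higher. From 2i + LIF to PD + LIF the mean was 3.52-fold higher in wild-type and 5.15-fold higher in Trincr1-/- cells. Each value rests on an estimated 31.9 to 51.7 fragments in 2i + LIF and 124 to 244 in PD + LIF.

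Gpx1 was the highest member in 2i + LIF, at 383 and 405 FPKM in wild-type and 380 and 419 FPKM in Trincr1-/- cells, which overlapped. In PD + LIF it was at 261 and 267 FPKM in wild-type and at 259 and 251 FPKM in Trincr1-/- cells. The mean was 1.49-fold lower in PD + LIF in wild-type and 1.57-fold lower in Trincr1-/- cells. The genotypes in PD + LIF did not overlap, yet their means were only 1.04-fold apart, 264 ± 4.00 against 255 ± 5.03 FPKM (SD, n = 2 each).

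Gpx4 was the highest member in PD + LIF, and it was the gene of the 6 whose genotypes stood in opposite order in the 2 media without overlap in either. In 2i + LIF it was at 247 and 227 FPKM in wild-type and at 253 and 280 FPKM in Trincr1-/- cells. In PD + LIF it was at 341 and 348 FPKM in wild-type and at 279 and 286 FPKM in Trincr1-/- cells. Relative to wild type, the Trincr1-/- mean was 1.12-fold higher in 2i + LIF and 1.22-fold lower in PD + LIF. The rise with PD + LIF was 1.45-fold in wild-type cells, and the 2 Trincr1-/- groups overlapped, with means of 266 ± 19.2 FPKM in 2i + LIF and 282 ± 4.95 FPKM in PD + LIF (SD, n = 2 each).

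The cysteine members of the endoplasmic reticulum, Gpx7 and Gpx8, were both higher in PD + LIF, and neither differed between the genotypes there beyond the spread of its samples. Gpx7 was at 6.24 and 6.79 FPKM in wild-type and at 6.27 and 5.27 FPKM in Trincr1-/- cells in 2i + LIF, and at 8.84 and 11.3 FPKM in wild-type and 13.1 and 10.3 FPKM in Trincr1-/- cells in PD + LIF. Its media did not overlap in either genotype, and its genotypes overlapped in both media. Gpx8, which is anchored in the membrane of the endoplasmic reticulum, was at 2.27 and 2.70 FPKM in wild-type and at 2.98 and 3.42 FPKM in Trincr1-/- cells in 2i + LIF. In PD + LIF it was at 5.71 and 8.52 FPKM in wild-type and at 8.41 and 6.37 FPKM in Trincr1-/- cells. Its genotypes overlapped in PD + LIF and did not in 2i + LIF, where the mean was 3.20 ± 0.312 FPKM in Trincr1-/- and 2.49 ± 0.300 FPKM in wild-type cells (SD, n = 2 each). All values of Gpx8 rest on an estimated 22.0 to 80.0 fragments.

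**Figure D2:**
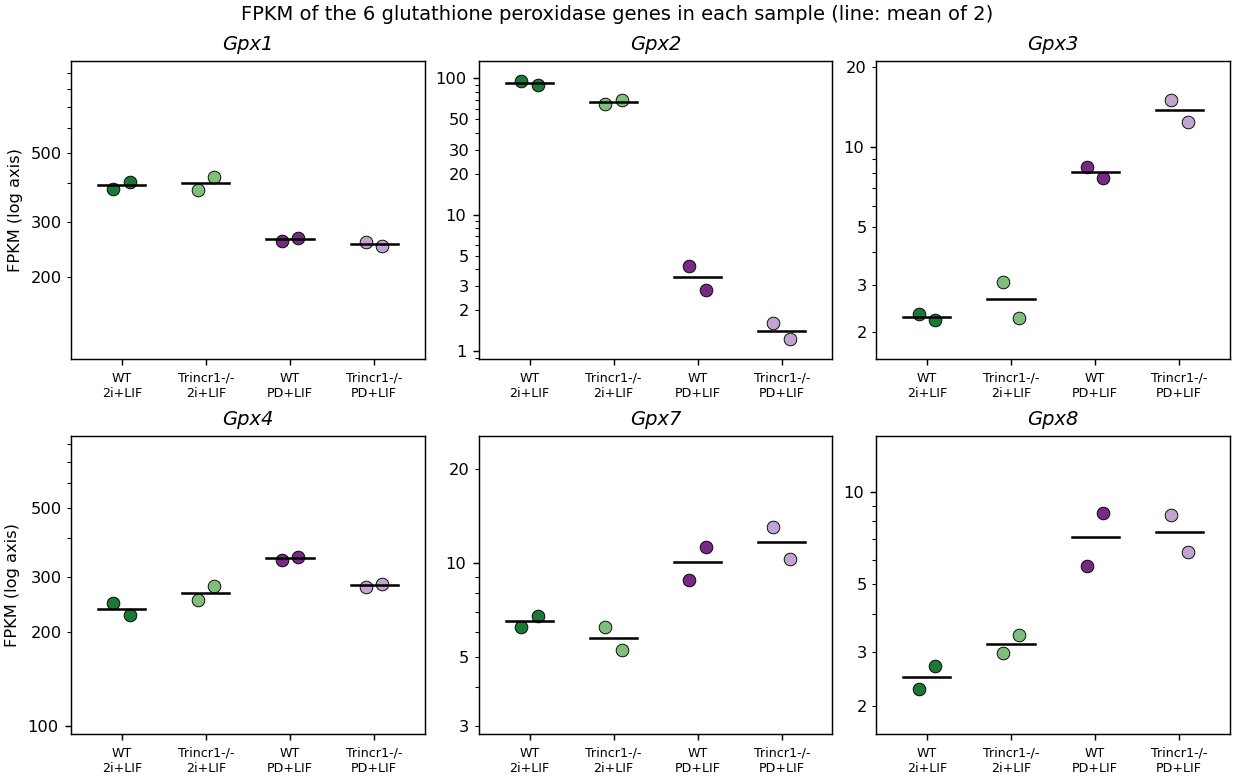
FPKM of each of the 6 genes (log y axes, with a range of their own in each panel) in the 4 groups of genotype and medium (x axes). Each point is 1 sample and each line the mean of 2 samples: Gpx2 lies between 64.6 and 95.6 FPKM in 2i + LIF and between 1.23 and 4.19 FPKM in PD + LIF, while Gpx3, Gpx7 and Gpx8 lie higher in PD + LIF.

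The other 2 family members were low in these cells. Gpx6, an olfactory epithelium gene, was at 1.37 and 1.37 FPKM in wild-type and at 1.20 and 0.949 FPKM in Trincr1-/- cells in 2i + LIF, and at 0.0728 to 0.415 FPKM over the 4 samples in PD + LIF, an estimated 1 to 5 fragments. Gpx5, an epididymal gene, was listed at 0 in all samples but 1, which had 0.0584 FPKM, about 1 fragment.

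Whether the samples of a comparison overlapped was set against the same measure over all genes. In wild-type cells the 2 samples in PD + LIF did not overlap the 2 in 2i + LIF for 6 of the 6 members (4 higher, 2 lower), as for 76.4% of the 15430 genes. In Trincr1-/- cells this held for 5 of 6 (3 higher, 2 lower), against 74.5% of all genes. Between the genotypes, 3 of 6 members did not overlap in 2i + LIF (Gpx4 and Gpx8 higher in the knockout, Gpx2 lower), against 44.4% of all genes, and 4 of 6 in PD + LIF (Gpx3 higher, Gpx1, Gpx2 and Gpx4 lower), against 57.7%. These shares are near their background and are no result about the members.

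On the log2(FPKM + 1) scale the difference between PD + LIF and 2i + LIF in wild-type cells was -4.40 ± 0.15 for Gpx2, 1.46 ± 0.14 for Gpx3, 1.20 ± 0.19 for Gpx8, -0.58 ± 0.05 for Gpx1, 0.55 ± 0.15 for Gpx7 and 0.54 ± 0.06 for Gpx4 (SE of the model over the 8 samples). The median over all genes tested was 0.08. In Trincr1-/- cells the difference was -4.81 ± 0.15 for Gpx2 and 2.01 ± 0.14 for Gpx3. The genotype difference in PD + LIF was -0.88 ± 0.15 for Gpx2, 0.71 ± 0.14 for Gpx3 and -0.29 ± 0.06 for Gpx4, and it was -0.05 for Gpx1, 0.20 for Gpx7 and 0.06 for Gpx8. This scale adds 1 FPKM to each value, so it understates the change of Gpx2 in PD + LIF, and the comparisons of the media and of the genotypes share samples.

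**Figure D3:**
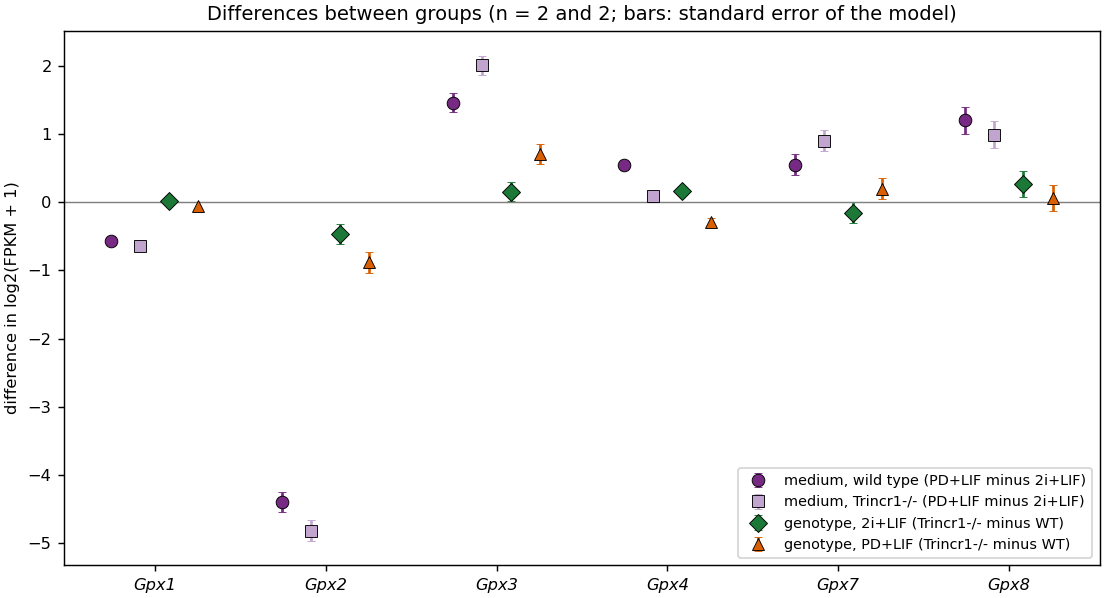
Difference in log2(FPKM + 1) (y axis) for each of the 6 genes (x axis) in 4 comparisons of 2 against 2 samples, with bars of 1 standard error of the model. The medium differences of Gpx2, -4.40 and -4.81, stand far below all others, Gpx3 has the highest medium differences (1.46 and 2.01), and the genotype differences lie between -0.88 and 0.71.

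Markers of other cell types moved with the medium and the genotype as well. The summed level of 8 primed or differentiating epiblast markers was 9.15 to 11.2 FPKM over the samples in 2i + LIF, 60.2 and 66.5 FPKM in wild-type and 80.7 and 82.7 FPKM in Trincr1-/- cells in PD + LIF, led by Otx2 with means of 41.8 and 50.5 FPKM there. The sum did not describe each of its markers, since T (1.82 and 0.112 FPKM), Eomes (3.04 and 1.54 FPKM) and Cdx2 (0.746 and 0.073 FPKM) had lower means in PD + LIF than in 2i + LIF in wild-type cells. The 7 primitive endoderm markers summed to 1.04 to 1.89, 4.67 to 5.55 and 7.08 to 7.75 FPKM in the same 3 sets of samples. In wild-type cells in PD + LIF, Gata4 (2.17 FPKM) and Dab2 (2.06 FPKM) led that sum. Foxa2, Pdgfra and Gata6 were also higher there than in 2i + LIF, with means of at most 0.436 FPKM. The means of Sox17 (0.0962 to 0.0696 FPKM) and Sox7 (0.174 to 0.0506 FPKM) fell from 2i + LIF to PD + LIF. The 8 fibroblast or feeder markers summed to 0.714 to 1.5, 4.47 to 4.92 and 5.93 to 6.87 FPKM in those sets. Lum was at 0 in all 4 samples in PD + LIF and Dcn at most 0.0539 FPKM in any sample. Thy1 led this sum in wild-type cells, with means of 0.571 FPKM in 2i + LIF and 3.38 FPKM in PD + LIF. Each of the others had a mean of at most 0.409 FPKM in wild-type cells in PD + LIF. In PD + LIF these 3 sums and Gpx3 were higher in Trincr1-/- than in wild-type cells, but single markers departed from the sums. Col1a1 (0.409 and 1.89 FPKM in wild-type and Trincr1-/- cells) and Foxa2 (0.436 and 1.68 FPKM) rose. Gata4 was level (2.17 and 2.18 FPKM). Thy1 (3.38 and 3.05 FPKM), Postn (0.297 and 0.260 FPKM), Sox17 (0.0696 and 0.0288 FPKM) and Eomes (1.54 and 0.883 FPKM) had lower means in Trincr1-/- cells. The part of these markers in the levels of the family was not tested. In RNA from bulk cells a smaller number of expressing cells and less RNA per cell cannot be told apart.

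The promoter windows of Gpx2 and Gpx3 are shown because these members moved most between the media. The windows hold the 250 bases before and the 50 bases after the RefSeq start, read 5′ to 3′ in the direction of the gene (GRCm38.p6), with matches in capitals.
Gpx2, chr12:76795505-76795804, minus strand: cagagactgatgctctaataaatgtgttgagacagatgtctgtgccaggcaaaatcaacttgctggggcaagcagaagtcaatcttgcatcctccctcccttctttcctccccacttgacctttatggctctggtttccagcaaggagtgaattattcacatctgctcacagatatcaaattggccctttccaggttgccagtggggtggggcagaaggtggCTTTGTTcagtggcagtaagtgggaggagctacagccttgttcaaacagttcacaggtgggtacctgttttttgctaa
Gpx3, chr11:54902604-54902903, plus strand: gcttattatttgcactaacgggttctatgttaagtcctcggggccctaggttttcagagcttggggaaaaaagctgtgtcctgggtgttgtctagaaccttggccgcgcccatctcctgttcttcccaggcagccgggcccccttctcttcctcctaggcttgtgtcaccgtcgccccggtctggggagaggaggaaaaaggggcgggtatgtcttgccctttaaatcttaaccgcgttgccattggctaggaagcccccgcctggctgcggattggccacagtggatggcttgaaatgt
The letters CTTTG followed by A or T at both of the next places, a form bound by TCF/LEF factors, were searched on both strands. The window of Gpx2 held 1 match, on the gene's own strand from 28 to 22 bases before the start, and the windows of the other 5 members held 0. Of 32851 windows of the same length, 16.9% held at least 1. The core of the antioxidant response element, TGACNNNGC, which NRF2 binds, was in 0 of the members' windows and in 12.4% of all windows. The window of Gpx2 held 0 CpG dinucleotides, as did 5.43% of all windows, and that of Gpx3 held 13 against a median of 7. A match of letters is a description of the window and not evidence of binding.

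The genes that work beside the peroxidases were tested in 9 lists of 135 genes without the family, of which 125 passed the filter. The lists were chosen with earlier results of these data known, so their shares beside those of all genes are a description. The test was limma on log2(FPKM + 1) with the 4 groups in 1 model, and a gene was called at a Benjamini-Hochberg adjusted p under 0.05 over all 15430 genes. From 2i + LIF to PD + LIF in wild-type cells, 42 rose and 42 fell, or 33.6% each way, against 30.9% and 21.3% of all genes tested. In Trincr1-/- cells 39 rose and 37 fell, against 29.6% and 20.3% of all genes. The median difference in log2(FPKM + 1) over the 125 genes was 0.02 in each genotype, against 0.08 in wild-type and 0.07 in Trincr1-/- cells over all genes.

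In the lists of glutathione supply and recycling, falls outnumbered rises in both genotypes. Their medians were below 0, at -0.13 for synthesis and cystine supply and -0.32 for reduction in wild-type cells. Of 15 genes of glutathione synthesis and cystine supply, 2 rose and 6 fell in wild-type and 3 rose and 6 fell in Trincr1-/- cells. That list also holds genes other than those of synthesis, such as Ggt1, so its counts do not describe the synthesis enzymes alone. Ggt1, which splits glutathione outside the cell, fell from 13.6 and 16.4 FPKM to 2.10 and 1.52 FPKM in wild-type cells (log2 difference -2.51 ± 0.15, adjusted p = 2.2e-05). Cth, which makes cysteine from cystathionine, fell from 57.6 and 59.7 FPKM to 20.5 and 19.2 FPKM (-1.52 ± 0.06, adjusted p = 5.6e-06). Of 11 genes of glutathione and NADPH reduction, 2 rose and 6 fell in each genotype. Glrx, a glutaredoxin, fell by 1.33 in wild-type and by 1.96 in Trincr1-/- cells on the log2 scale, and Gsr fell by 1.05 in Trincr1-/- cells. Idh2, the mitochondrial NADPH producer, rose by 0.70 ± 0.06 in wild-type cells.

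The glutathione transferases, which join glutathione to other compounds, went both ways by large amounts. Of 19 tested, 13 rose and 5 fell in wild-type cells, and 8 rose and 6 fell in Trincr1-/- cells, with a median of 0.72 in wild-type and 0.33 in Trincr1-/- cells. Gstm5 rose from 1.12 and 0.571 FPKM to 9.71 and 6.67 FPKM in wild-type cells (2.31 ± 0.20), and Gstt2 from 2.79 and 2.94 FPKM to 10.9 and 11.5 FPKM. Gsto1 fell from 42.7 and 45.6 FPKM to 11.9 and 10.5 FPKM (-1.89 ± 0.08). Gstp2 fell from 68.5 and 79.6 FPKM to 15.4 and 14.6 FPKM, a value that is uncertain because its reads can be shared with the near-identical Gstp1.

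The differences of the other peroxide enzymes named here were smaller than that of Gpx2. Of 18 peroxiredoxins, thioredoxins, catalase, superoxide dismutases and related genes, 2 rose and 6 fell in wild-type and 4 rose and 6 fell in Trincr1-/- cells. Prdx6, a peroxiredoxin that also reduces phospholipid hydroperoxides, rose from 53.3 and 53.2 FPKM to 80.8 and 81.6 FPKM, and mitochondrial Prdx3 fell from 45.4 and 45.5 FPKM to 29.8 and 31.2 FPKM. Nqo1, a quinone reductase and NRF2 target, fell from 41.2 and 46.0 FPKM to 17.3 and 12.5 FPKM. Txnip, which binds and inhibits thioredoxin, rose from 29.8 and 33.5 FPKM to 103 and 127 FPKM. Of the 8 NRF2 regulators, 4 rose and 2 fell in wild-type cells, with Maff up by 1.87 and Keap1, the repressor of NRF2, down at -0.68, and 2 rose and 3 fell in Trincr1-/- cells.

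The genes that place selenium into proteins, which Gpx1 to Gpx4 depend on, went both ways. Of the 11 genes of selenoprotein synthesis, 3 rose and 2 fell in wild-type and 3 rose and 1 fell in Trincr1-/- cells. Lrp8, a receptor for selenoprotein P, rose by 0.92 ± 0.15 in wild-type cells, and Sephs2, which makes the selenium donor, went from 71.4 and 74.0 FPKM to 57.4 and 59.6 FPKM. Of 13 other selenoprotein genes, 5 rose and 5 fell in wild-type and 6 rose and 2 fell in Trincr1-/- cells. Sepn1 rose from 0.611 and 0.739 FPKM to 4.11 and 5.18 FPKM, and Sepp1, the selenium carrier, from 1.59 and 0.748 FPKM to 5.75 and 4.78 FPKM.

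The medians of the lists of peroxide enzymes, NRF2 regulators, selenoprotein synthesis, other selenoproteins and lipid peroxidation were -0.04, 0.27, 0.08, -0.13 and -0.06 in wild-type cells. Near Gpx4 in function, 7 of 18 genes of lipid peroxidation and ferroptosis rose and 6 fell in wild-type cells, and 7 rose and 4 fell in Trincr1-/- cells. Slc39a14, a metal importer, fell from 7.99 and 7.97 FPKM to 3.17 and 3.19 FPKM in wild-type cells. Beside Gpx7 and Gpx8, 4 of 12 genes of oxidative folding in the endoplasmic reticulum rose and 4 fell in wild-type cells (median 0.07), with P4hb, a protein disulfide isomerase, going from 183 and 175 FPKM to 99.3 and 108 FPKM, and 4 rose and 3 fell in Trincr1-/- cells. Of the 36 calls in wild-type and 35 in Trincr1-/- cells that the rule for named genes takes from the lists, 30 and 30 held when any 1 of the 8 libraries was left out. The exceptions were Gnmt, Oplah, Dio3, Slc40a1, Qsox1 and Bach2 in wild-type cells, whose highest adjusted p was 0.0558 to 0.238, and Ggt7, Msrb1, Slc40a1, Alox5 and Bach2 in Trincr1-/- cells, whose highest was 0.0719 to 0.149.

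Between the genotypes in 2i + LIF, 1 of the 125 genes was called, Cth, against 0.35% of all genes higher and 0.855% lower. It went from 57.6 and 59.7 FPKM in wild-type to 40.6 and 38.6 FPKM in Trincr1-/- cells (log2 difference -0.55 ± 0.06, adjusted p = 0.0099), and its call was lost without either wild-type library or the second Trincr1-/- library of that medium, with an adjusted p of up to 0.0839.

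In PD + LIF, the levels of 13 of the 125 genes rose and those of 18 fell from wild-type to Trincr1-/- cells, or 10.4% and 14.4%, against 6.29% and 5.77% of all genes tested. The median difference was -0.03 over the 125 genes and 0.01 over all genes. Of the 19 glutathione transferases, 0 rose and 7 fell, with a median of -0.30 (Gsta3, Gsta4, Gstm1, Gstm3, Gstm6, Gstp2 and Gstt2), with Gstp2 at 15.4 and 14.6 FPKM in wild-type and 7.70 and 6.93 FPKM in Trincr1-/- cells. Gsr went from 94.3 and 86.4 FPKM to 63.6 and 63.3 FPKM (-0.50 ± 0.06, adjusted p = 0.005), and 1 of the 11 genes of its list rose and 3 fell. Cth went from 20.5 and 19.2 FPKM to 12.3 and 12.7 FPKM, 1 of 2 falls and 0 rises among the 15 genes of glutathione synthesis and cystine supply. Of the 12 oxidative folding genes 5 rose (Hspa5, P4hb, Pdia3, Pdia4 and Txndc5) and 0 fell, with a median of 0.09 and with the chaperone Hspa5 at 127 and 132 FPKM in wild-type and 186 and 172 FPKM in Trincr1-/- cells. Among the 18 genes of lipid peroxidation 2 rose and 1 fell, with Slc39a14 at 3.17 and 3.19 FPKM against 7.28 and 7.69 FPKM, Lpcat3, an enzyme of phospholipid remodelling, at 33.7 and 32.1 FPKM against 46.0 and 48.1 FPKM, and Ftl1, a ferritin chain, down at -0.33. Txnip was at 103 and 127 FPKM in wild-type and 65.0 and 61.5 FPKM in Trincr1-/- cells, and 1 of the 18 genes of its list rose and 2 fell. Of the other selenoproteins 3 of 13 rose and 1 fell, of the selenoprotein synthesis genes 1 of 11 rose and 1 fell, and of the NRF2 regulators 0 of 8 rose and 1 fell.

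These counts rest on single libraries: the 31 calls became 12 without the first and 19 without the second wild-type library in PD + LIF, and 12 without the first and 20 without the second Trincr1-/- library. Of the 21 calls named by rule in this comparison, 8 held whichever library was left out, namely Cth, Gsr, Gstp2, Txnip, Slc39a14, Lpcat3, Ftl1 and Hspa5.

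**Figure D4:**
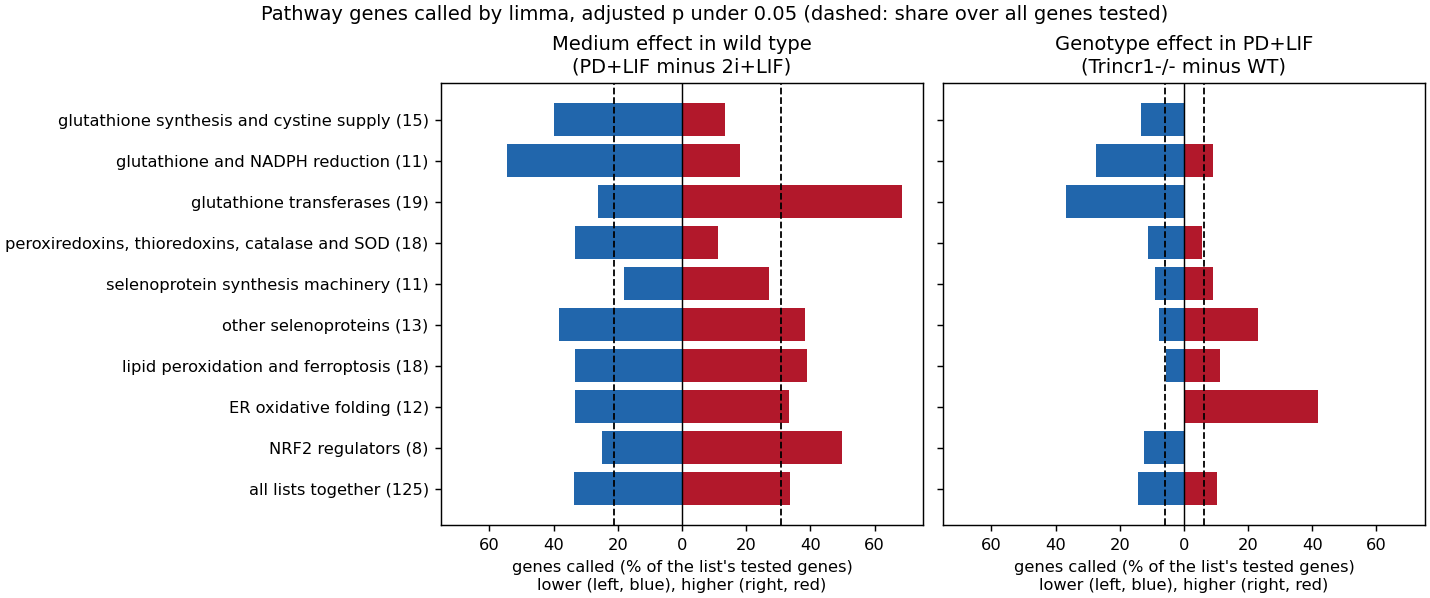
Share of each list's tested genes (number in brackets) called lower (left) or higher (right) by limma at an adjusted p under 0.05, for the medium effect in wild-type cells (left panel) and the genotype effect in PD + LIF (right panel). Dashed lines mark the share over all 15430 genes, 21.3% and 30.9% on the left and 5.77% and 6.29% on the right: the transferases reach 68.4% higher with the medium, and 36.8% lower with the genotype.

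The difference of the genotype effect between the media was called for 4 list genes upwards and 5 downwards, against 0.992% and 0.817% of all genes tested. They were Slc39a14, Lpcat3, Hspa5 and Pdia3 upwards and Gstp2, Gstm1, Gsta4, Idh2 and Gsr downwards. Leaving out any 1 of the 8 libraries left 0 or 1 of these calls (1 without the first and 1 without the second wild-type library in 2i + LIF, 0 without each of the other 6). For the members the same difference was -0.45 ± 0.08 for Gpx4, 0.55 ± 0.20 for Gpx3 and -0.42 ± 0.21 for Gpx2 on the log2(FPKM + 1) scale, given without a test.

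The genes whose levels ran most like each member over the 8 samples were found by Pearson r of log2(FPKM + 1) among 12053 genes with a mean of at least 1 FPKM. The samples fall into 2 media, so r mostly describes the step between them and is given without a p. Gpx2 was most like Cdo1, cysteine dioxygenase (r = 0.999), 9630033F20Rik (r = 0.998) and Pdss1, an enzyme of coenzyme Q synthesis (r = 0.998). Cdo1 was at 18.1 and 17.5 FPKM in wild-type and 15.5 and 14.9 FPKM in Trincr1-/- cells in 2i + LIF, and at 3.80 and 3.04 FPKM in wild-type and 2.46 and 2.5 FPKM in Trincr1-/- cells in PD + LIF, so its groups stood in the order of those of Gpx2. Gpx1 was most like Bcl7b (r = 0.997), Sod1, the cytosolic superoxide dismutase (r = 0.995), and Atp5o, a subunit of ATP synthase (r = 0.995). Sod1 was at 890 to 987 FPKM in 2i + LIF and 610 to 647 FPKM in PD + LIF. The nearest to Gpx3 were Ror1, Fam60a and Zfp334 (r = 0.994 each), and among the nearest to Gpx4 were Dis3l2 (r = 0.989) and Arhgef39 (r = 0.988). The nearest to Gpx7 were Mlf1 (r = 0.992), Pcdh1 (r = 0.989) and Rnf141 (r = 0.988), and to Gpx8 Fah (r = 0.991), Sema3b (r = 0.990) and Cyth3 (r = 0.989).

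The pulldown asked which RNAs travel with TRIM71, an RNA-binding protein of the TRIM-NHL family. It has 1 deposited value per transcript for the pulldown and 1 for the input, so no difference in it has a replicate check, and the control pulldown, labelled empty, was not analysed here. Enrichment is the ratio of the authors' scaled pulldown to their scaled input. Before scaling, the input held Gpx4 at 1080 FPKM and the pulldown at 637.6 FPKM, a ratio of 0.590. With the authors' scaling its enrichment was 1.33, with both libraries scaled to equal means it was 1.96, and by the authors' scaling 87.6% of the 9651 transcripts with an input above 2 FPKM lay below it. Among the 55 transcripts within 1.5-fold of its input the median was 0.292, and 10.9% lay at or above it. Gpx1, with 807.8 FPKM in the input, had an enrichment of 0.377, and Gpx2, with 131.8 FPKM, one of 0.314, against medians of 0.261 and 0.266 at like input. Gpx7, Gpx3 and Gpx8 had 24.4, 5.1 and 2.8 FPKM in the input and were listed at 0 in the pulldown, as were 36.7%, 64.3% and 73.7% of the transcripts at like input. An enrichment above 3 was reached by 0 of the 6 members and by 5.10% of the 9651 transcripts, and one above 1 by 1 of 6 and by 15.9%. Without the scaling, 0 of the 6 members had a ratio above 1.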

How the data were processed

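RNA-seq covered 8 samples in 4 groups. By the submitters' processing notes and the methods, reads were aligned with STAR 2.5.0 and quantified with Cufflinks 2.2.1, and the authors deposited normalized FPKM values per gene and sample, with no counts. The notes name mm9, but 76.8% of 13844 genes lie within 1000 bases of their RefSeq GRCm38.p6 ends, against 5.17% of 14651 for NCBIM37. For the pulldown the authors deposited 1 pooled FPKM value per transcript and library kind, rounded to 1 decimal, a scaled pair and their own fold of enrichment, which was not used.

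Of 41260 entries, the highest was kept for 39 repeated identifiers. Values were log2-transformed after adding 1 FPKM, and limma 3.58.1 (R 4.3.3) with a variance trend and 4 residual degrees of freedom was fitted to 15430 genes with a mean above 0.2 FPKM, with Benjamini-Hochberg adjustment, after a test on simulated data. Depth was estimated from the values of genes with 1 fragment and is approximate. Active-site codons were read from GENCODE M1 and promoters from RefSeq, in which all 6 members matched.

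The members and gene lists were chosen with earlier results of these data known, so the members carry no p-values and lists are described by counts. From each list the rule named up to 2 rises and 2 falls per comparison, the largest among genes called and not overlapping. How these calls held without single libraries therefore does not describe the other calls of the lists. For the interaction it named up to 4 called genes, and for each member the 3 most alike genes, of which 1 is not reported here. Other pseudocounts, filters, scalings, samples fitted, a replicate block and leaving out each library were tried.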

Additional observations from a re-analysis of the deposited data

Results flagged for a closer look

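The genotype difference of Gpx4 had opposite signs in the media, with no overlap of the samples in either: higher in Trincr1-/- cells in 2i + LIF and lower in PD + LIF, a difference of -0.45 on the log2(FPKM + 1) scale. That difference was not tested, because the gene was chosen with its values known. Lack of overlap between the genotypes was also found for 44.4% of all 15430 genes in 2i + LIF and for 57.7% in PD + LIF. By itself it therefore does not set Gpx4 apart. The nearest samples of the 2 genotypes in 2i + LIF were only 1.02-fold apart. How often other genes reversed in this way was not tested.

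For 9 pathway genes the genotype difference in PD + LIF differed from that in 2i + LIF by the interaction term of limma. On the log2(FPKM + 1) scale it was -1.15 for Gstp2 (adjusted p = 0.0188), -0.82 for Gstm1 (0.0368), -0.42 for Gsta4 (0.0310), -0.56 for Idh2 (0.0354), -0.52 for Gsr (0.0383), 1.01 for Slc39a14 (0.0346), 0.54 for Lpcat3 (0.0287), 0.60 for Hspa5 (0.0272) and 0.33 for Pdia3 (0.0368). Each of these calls was lost in at least 6 of the 8 fits that left out 1 library.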

How the results depend on the processing

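The medium counts (8048 genes and 84 list genes in wild-type, 7708 and 76 in Trincr1-/- cells) stayed within 1.5 times under all alternatives. The genotype counts did not, and the cause was not tested. In 2i + LIF, 186 genes were called, 122 with no filter, 0 (2106 at an unadjusted p under 0.05) with only the 2 groups compared fitted, and 40 to 113 without single libraries. The 1 list gene called there became 0 with only the 2 groups and 0 to 1 without single libraries. In PD + LIF, 1861 genes became 316 with only the 2 groups and 335 to 1519 without single libraries, and 31 list genes became 20 with no variance trend, 7 with only the 2 groups and 12 to 28 without single libraries. For the interaction, 279 genes became 138 with no filter, 88 with no variance trend and 3 to 34 without single libraries, and 9 list genes became 3, 1 and 0 to 1. Of 444 recomputed log2 differences of the members, 403 moved by less than the spread between replicates and 41 moved by more. Many of them could not move. The filters, the variance trend, the replicate block, the groups fitted and libraries outside a comparison leave its group means unchanged. Of those without overlap, 0 changed sign, but only a rescaling of the samples could have reversed one. These counts are therefore no measure of how firm the differences are. With unscaled pulldown values, 0 members had an enrichment above 1.

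Replicate numbers did not pair the samples: the correlation of replicate differences between groups was -0.054 to 0.006. With the replicate block, 111 genes were called for the genotype in 2i + LIF, and 39 genes and 1 list gene for the interaction, and the other counts of calls stayed within 1.5 times.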
